A study of Mus musculus with 8 samples.

Results

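The ascending aorta was compared with the descending aorta of newborn mice, with the difference averaged over wild-type mice (WT) and mice lacking Lox (KO). All 8 arrays of the series entered the comparison, 4 of ascending and 4 of descending aorta, and each side held 2 WT and 2 KO arrays. The 4 groups were WT ascending, WT descending, KO ascending and KO descending. All mice were on the albino C57BL/6J strain background and were taken at postnatal day 0. Each array measured total RNA of 1 pool of 8 pups of 1 genotype, so a group is 2 pools and the p-values measure the spread between pools, not between pups. The labels bound the ascending piece by the aortic valve and the ductus arteriosus, which takes in the arch, and the descending piece by the vena cava and the diaphragm. The KO is labelled only as lacking Lox, the gene of lysyl oxidase, and the sources used here do not say how the allele was made.

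A gene was taken as a probe set with exactly 1 gene symbol, with the brightest probe set used where a gene had several, and 16638 genes were bright enough to be tested. The values are log2 values made by the authors with RMA, which summarises the probes of a probe set after background correction and quantile normalization. A difference is ascending minus descending on the log2 scale, so a value of 1 means that the ascending segment was higher by a factor of 2. It was taken within each genotype and then averaged over both, with equal weight. A gene is called here when its adjusted p in limma was under 0.05, with the Benjamini-Hochberg adjustment over all 16638 genes. It is called separated when, in addition, all 4 ascending arrays lay on 1 side of all 4 descending arrays.

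The segments of the aorta have different embryonic origins. Smooth muscle of the ascending aorta and arch comes from the cardiac neural crest and the second heart field, while that of the descending aorta comes from paraxial mesoderm of the somites. Hox genes encode homeodomain transcription factors whose order along their 4 chromosomal clusters follows their order of expression along the body axis, with low paralog numbers at the front and high numbers toward the tail. The aorta also carries other tissues with it, among them the endothelial lining, the adventitia with nerves and small vessels, and perivascular fat. Total RNA of a dissected piece reports all of them at once.

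The 2 arrays of a group correlated over genes at 0.991 to 0.994, and array medians lay between 5.11 and 5.19. The second principal component, with 27.2% of the variance, parted ascending from descending arrays, after a first component of 34.2% that parted the genotypes. Lox itself lay between 11.24 and 11.60 on the WT arrays and between 8.51 and 8.87 on the KO arrays, lower on every KO array, and its averaged segment difference was 0.24 (adjusted p = 0.156). Smooth muscle genes were bright in both segments. Acta2, smooth muscle actin, read between 12.42 and 12.63 on the 8 arrays (difference 0.02, adjusted p = 0.948), and Myh11, smooth muscle myosin, between 10.55 and 10.92 (difference -0.13, adjusted p = 0.474). Eln, elastin, read between 12.04 and 12.43 (difference 0.04, adjusted p = 0.897). These defining genes of the vessel wall were thus present in every pool, and none of them was called; all 3 were chosen after their values were seen.

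Of the 16638 genes, 677 were called, or 4.07%. The ascending segment was higher for 250 genes (1.50%) and lower for 427 (2.57%), and the median difference of all genes was -0.003. Before adjustment 2614 genes had a p under 0.05. The 4 and 4 arrays were separated for 505 called genes (3.04%), of which 185 were higher (1.11%) and 320 lower (1.92%) in the ascending segment. Among the separated genes, 94 differed by at least 2-fold, 21 upward and 73 downward, and 210 differed by less than 1.5-fold. The larger differences were thus more often toward the descending segment. The other 172 called genes had overlapping arrays. Each array was also left out in turn, which assumes that the remaining lone array of its group varies like the other groups. This called 390 to 542 genes, with 432 without WT ascending array 1, 390 without WT descending array 1, 437 without WT descending array 2, 427 without KO ascending array 1 and 429 without KO descending array 2. Of the 505 separated genes, 265 stayed called without each of the 8 arrays, 83 of them higher and 182 lower in the ascending segment. Genes named below as higher or lower are of this kind unless a loss of the call is stated.

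Of the 677 called genes, 674 had the same sign in WT and in KO, which a choice by the average favours. In 437 of the 505 separated genes the smaller of the 2 genotype differences was at least 0.5 of the larger one. Choosing genes by their average and by separated arrays favours this as well, and the share among all genes was not computed. Each genotype alone called 247 genes (1.48% in WT and 1.48% in KO), with 85 higher and 162 lower in WT and 91 higher and 156 lower in KO. Both genotypes called 138, and 130 of these were separated, 37 higher and 93 lower. Averaging called 342 genes that neither genotype called alone. Without single arrays the WT count ran from 63 to 224, with 65 without WT ascending array 1, 84 without WT descending array 1 and 63 without WT descending array 2, and was 166 without WT ascending array 2. The KO count ran from 54 to 191, with 61 and 108 without KO ascending arrays 1 and 2, and 148 and 54 without KO descending arrays 1 and 2.

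**Figure D1:**
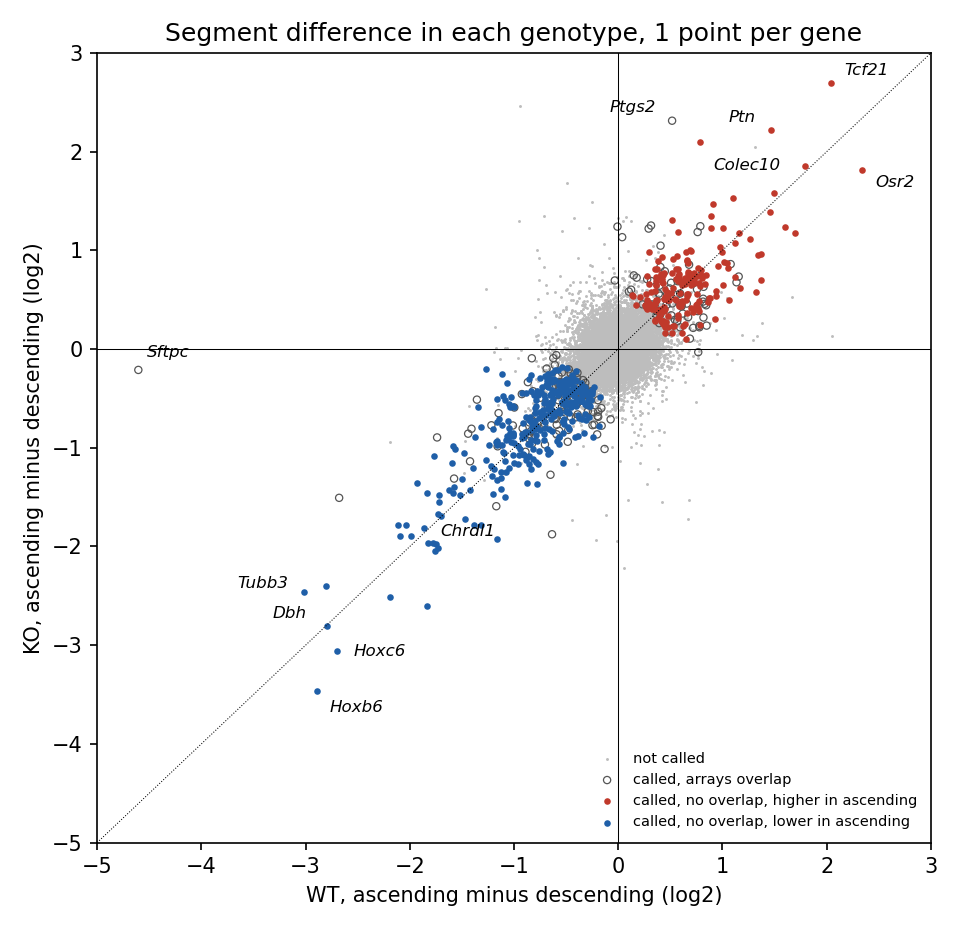
Ascending minus descending difference (log2) of each of the 16638 genes in WT (horizontal) and in KO (vertical); filled points are called genes whose 4 and 4 arrays do not overlap, open circles called genes whose arrays overlap, and the dotted line marks equal differences. Tcf21, Osr2 and Ptn lie at the upper right and Hoxb6, Hoxc6, Tubb3 and Dbh at the lower left, while Sftpc lies at -4.61 in WT and -0.21 in KO.

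Genes picked in 1 genotype were read in the arrays of the other, which took no part in picking them. A fit on the 4 WT arrays alone called 167 genes, and 98.2% of them had the same sign in KO. The KO arrays did not overlap in that direction for 92.8%. The median size of their difference was 1.06 in WT, where it had chosen them, and 0.88 in KO. A fit on the 4 KO arrays alone called 114 genes, of which 96.5% had the same sign in WT and 93.9% did not overlap there, with a median of 1.19 in KO and 1.01 in WT. Among all genes, 58.6% had the same sign in both genotypes. The share of all genes without overlap was not computed, so 92.8% and 93.9% have no background beside them. Segment differences found in one genotype were thus read in the same direction in the other for most of the genes called, at a somewhat smaller size.

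The gene with the smallest p and the largest rise in the ascending segment was Tcf21, a basic helix-loop-helix factor known from epicardium, branchial muscle and fibroblast precursors of coronary vessels. Given in the order WT 1, WT 2, KO 1, KO 2, which holds for every gene below, it read 7.74, 7.72, 7.75 and 7.90 on the ascending arrays and 5.73, 5.64, 5.04 and 5.22 on the descending arrays. The lowest ascending array lay 1.99 above the highest descending array. This is 5.17-fold higher in the ascending segment (difference 2.37, SE 0.08, adjusted p = 9.45e-06). Osr2, a zinc finger factor of the odd-skipped family that acts in palate, limb and heart valve development, read 7.87, 7.50, 6.92 and 6.45 on the ascending arrays and 5.31, 5.37, 5.19 and 4.56 on the descending arrays. Averaged over the genotypes it was 4.22-fold higher in the ascending aorta, by 2.08 on the log2 scale (SE 0.16, adjusted p = 0.00042). Its KO ascending arrays were below its WT ascending arrays, but all 4 stood clear of the descending ones. The promoter of Tcf21 is shown beside the Hox promoters below, as the strongest gene of the opposite direction. Both factors were members of the list of somite and paraxial mesoderm factors, in which the other called genes went the other way.

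Further developmental regulators were higher in the ascending segment. Dlx5, a homeobox factor of the pharyngeal arches, read 8.02, 8.10, 7.14 and 7.46 on the ascending arrays and 6.85, 6.63, 6.76 and 6.68 on the descending arrays. On average Dlx5 was 1.93-fold higher in the ascending arrays (difference 0.95, SE 0.10, adjusted p = 0.00126). Its difference was 1.32 in WT and 0.58 in KO, and the difference between these was not called. Fgf10, a ligand made by second heart field cells, differed by 0.89 (adjusted p = 0.000618), and Hand2, a factor of the outflow tract and neural crest, by 0.78 (adjusted p = 0.011). Tbx20, a heart T-box factor, differed by 0.84 (adjusted p = 0.015), a call lost without WT ascending array 1, WT descending array 1 or KO ascending array 2. Of 24 tested factors of the outflow tract and second heart field, 3 were higher and 1, Eya1 at -0.78, lower (16.7% called, against 4.07% of all genes), with a list median of 0.13. The field's best-known markers did not pass: Isl1 differed by -0.12 (adjusted p = 0.678), Tbx1 by 0.04 (adjusted p = 0.887) and Nkx2-5 by 0.05 (adjusted p = 0.857). These 3 were chosen after their values were seen. Six2, a homeobox factor of outflow tract precursors also chosen after its values were seen, differed by 0.63 (adjusted p = 0.00796).

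Among 20 neural crest and arch factors 2 were higher, Dlx5 and Tfap2a, and 2 were lower, Prrx1 and Dlk1 (20% called, against 4.07% of all genes). Higher genes numbered 1 without WT ascending array 2, KO ascending array 1 or KO descending array 2 and 4 without WT ascending array 1. The number called lower was 1 without WT descending array 1. Tfap2a, a factor needed for neural crest, differed by 0.75 (adjusted p = 0.0175), a call lost without WT ascending array 2, KO ascending array 1 or KO descending array 2. Prrx1, a mesenchymal homeobox factor, was lower at -0.70 (adjusted p = 0.00156). Dlk1, a Notch-related surface protein of precursor cells, was lower at -0.49 (adjusted p = 0.0108), a call lost without WT descending array 1. The lists named for the embryonic origins of the 2 segments therefore did not move as blocks, and the calls within them went in both directions.

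**Figure D2:**
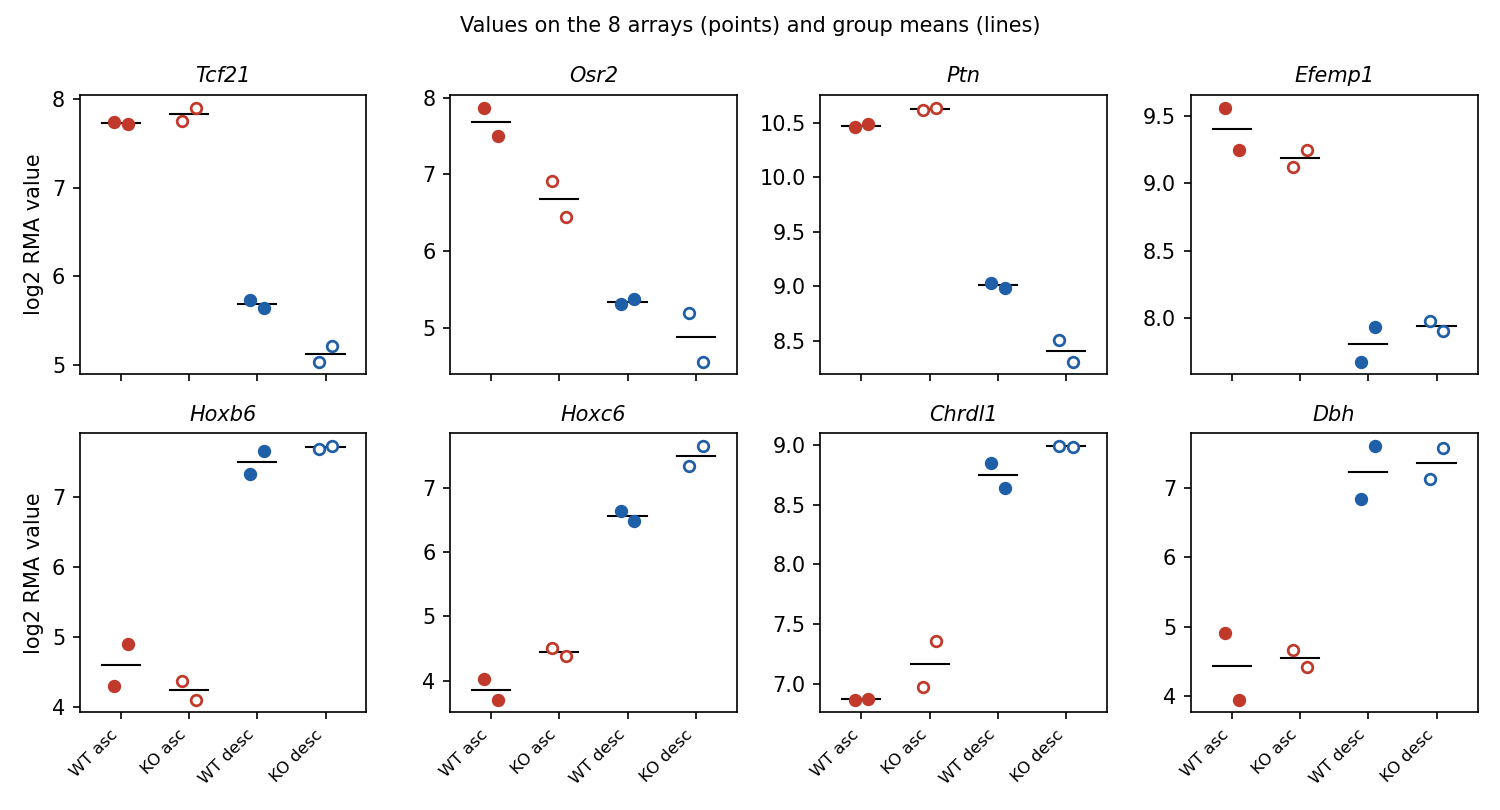
Log2 RMA values of 8 genes on each of the 8 arrays (red, ascending; blue, descending; filled, WT; open, KO), with the mean of each pair of arrays as a line; the vertical scale differs between genes. Tcf21, Osr2, Ptn and Efemp1 are higher on all 4 ascending arrays, and Hoxb6, Hoxc6, Chrdl1 and Dbh are higher on all 4 descending arrays.

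Several of the largest rises were of genes for secreted proteins. Ptn, pleiotrophin, a heparin-binding growth factor, read 10.46, 10.49, 10.62 and 10.64 on the ascending arrays and 9.03, 8.99, 8.51 and 8.31 on the descending arrays. Ptn thus differed by 1.84 (SE 0.07, adjusted p = 1.92e-05), 3.58-fold higher in the ascending segment. The closest arrays of the 2 segments lay 1.43 apart. Colec10, a collectin of the complement system, read 6.92, 6.79, 7.72 and 7.41 on the ascending arrays and 4.86, 5.27, 5.89 and 5.53 on the descending arrays. With all 4 ascending arrays on 1 side, the difference was 1.82 (SE 0.13, adjusted p = 0.00027), or 3.54-fold higher. Efemp1, fibulin-3, a glycoprotein of the elastic fibre family, read 9.56, 9.25, 9.12 and 9.25 on the ascending arrays and 7.68, 7.94, 7.98 and 7.91 on the descending arrays. The difference of 1.42 (SE 0.10, adjusted p = 0.000259) made the ascending segment 2.67-fold higher. Efemp1 was the 1 called gene among 20 tested elastic fibre genes (5% called, against 4.07% of all genes), whose median difference was 0.05. Angptl7, a secreted angiopoietin-like protein, differed by 1.15 (adjusted p = 0.000689).

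The matrix lists had calls in both directions. Of 27 tested matricellular genes 1 was higher and 5 lower (22.2% called, against 4.07% of all genes). Calls of higher genes came to 0 without WT ascending array 1, WT descending array 1, WT descending array 2, KO ascending array 1, KO ascending array 2 or KO descending array 2. The count of lower genes was 2 without WT descending array 1 and 3 without KO ascending array 1, KO ascending array 2, KO descending array 1 or KO descending array 2. Of 29 tested proteoglycan and hyaluronan genes 1 was higher and 1 lower (6.9% called, against 4.07% of all genes). The higher one was Acan, the large proteoglycan aggrecan, which differed by 0.71 (adjusted p = 0.00276). Its mean was 10.07 in the descending arrays and 10.78 in the ascending arrays. Of 17 tested cartilage genes (11.8% called, against 4.07% of all genes), Acan was the 1 higher one, and Comp was the 1 lower one (-0.62, a call lost without any of the 8 arrays but WT descending array 2 and KO ascending array 1). Basement membrane collagen genes Col4a5 (0.77) and Col4a6 (0.48), neighbours that share a promoter region on the X chromosome, were both higher, and the other 23 of 25 tested basement membrane genes gave 1 lower call (12% called, against 4.07% of all genes). That call, of the laminin chain Lama3 (-0.49), was lost without any of the 8 arrays but KO descending array 2. The fibrillar collagen gene Col24a1 was higher by 0.69 (adjusted p = 0.00691). Bmp7, a bone morphogenetic protein, was higher by 0.78 (adjusted p = 0.00965). Sost, sclerostin, which inhibits Wnt signalling, was higher by 0.99 (adjusted p = 0.00314) and was chosen after its values were seen.

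The ion channel genes went in both directions. Of 28 tested, 5 were higher and 4 lower (32.1% called, against 4.07% of all genes), with a median of -0.05. Kcnj15, an inwardly rectifying potassium channel, read 6.17, 5.98, 6.49 and 6.26 on the ascending arrays and 4.59, 4.58, 4.63 and 4.95 on the descending arrays. This is 2.9-fold higher in the ascending segment (difference 1.54, SE 0.10, adjusted p = 0.000236). Kcnip4, which modulates voltage-gated potassium channels, differed by 1.31, and Kcnab1, a subunit of such channels, by 0.63. Ano1, a calcium-activated chloride channel of smooth muscle, differed by 0.70. In the opposite direction, Piezo2, a stretch-gated channel, differed by -0.76 (adjusted p = 0.00146). Further genes among the largest rises have no list of their own. Flrt3, a membrane protein that binds fibroblast growth factor receptors and guidance receptors, read 7.66, 7.35, 6.71 and 7.28 on the ascending arrays and 5.91, 5.72, 5.81 and 5.82 on the descending arrays. Averaged over the genotypes it was 2.71-fold higher in the ascending aorta, by 1.44 on the log2 scale (SE 0.13, adjusted p = 0.000817). Cdh6, a cadherin of neural crest and kidney, differed by 1.19, and Dgkk, a diacylglycerol kinase, by 1.17. For Dgkk the WT difference of 1.16 and the KO difference of 1.18 were nearly the same. Sphkap, an anchor of protein kinase A, differed by 1.17, Tmem26 by 1.12, Akr1c18, an enzyme that inactivates progesterone, by 1.42, and Cst9, of the cystatin protease inhibitor family, by 1.44. Cst9 had the least even rise of these, at 0.79 in WT and 2.10 in KO.

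Corin, the protease that activates natriuretic peptides, read 7.86, 7.76, 7.21 and 7.17 on the ascending arrays and 6.83, 6.70, 6.32 and 6.31 on the descending arrays. On average Corin was 1.94-fold higher in the ascending arrays (difference 0.96, SE 0.07, adjusted p = 0.000323). It is a marker of heart muscle, and with Hspb7, a small heat shock protein of muscle (0.66), it was higher in the ascending segment although 30 tested heart muscle genes had a median of -0.56, lower in that segment. Summed over the list, heart muscle genes gave 13.11 to 13.66 on the ascending arrays and 13.31 to 13.95 on the descending arrays, so the segments overlapped. Among genes chosen after their values were seen, Chrm2, the muscarinic acetylcholine receptor of heart and smooth muscle (0.68), Popdc2, a membrane protein of striated muscle (0.81), Itgb8, an integrin subunit that activates TGF-beta (0.80), Cd55, a complement inhibitor (1.12), and Stc1, the secreted stanniocalcin (0.72), were also higher in the ascending segment.

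The probe set of the microRNA Mir31 was higher on all 4 ascending arrays. It was chosen after its values were seen, since microRNAs were outside the rule for named genes. The values were 5.25, 5.11, 5.34 and 5.14 on the ascending arrays and 4.12, 4.43, 3.67 and 3.87 on the descending arrays. Mir31 differed by 1.19 (SE 0.10, adjusted p = 0.000565). Its descending mean of 4.02 was below the dim limit of 4.11, so it was tested through its ascending arrays and the size of its fold is not exact. The array does not say which arm of the hairpin is made, so both mature sequences are shown, from RefSeq on build GRCm38.p6 (chromosome 4, minus strand), 5′ to 3′, with the seed, bases 2 to 8, in capitals:
mmu-miR-31-5p: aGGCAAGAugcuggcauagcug
mmu-miR-31-3p: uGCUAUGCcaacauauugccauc
The 2 arms share no seed. A probe set for a microRNA gene can also read its longer primary transcript, and mature molecules were not measured apart from it. Mir145a, a smooth muscle microRNA also chosen after its values were seen, differed by 0.78 and did not pass (adjusted p = 0.0519).

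Hox genes moved in the opposite direction. All 10 tested genes of paralog groups 5 to 8 were lower in the ascending segment, all 10 separated, with a median of -1.65, against a background of 1.92% of genes. All 10 stayed called without each array. Summed over the list, the ascending arrays gave 8.32 to 8.53 and the descending arrays 9.97 to 10.20, and the median was -1.71 in WT and -1.58 in KO. Hoxc5, the other matched gene of these groups, was too dim to be tested. The ascending means of Hoxb7 (3.69) and Hoxb8 (3.85) were below 4.11, the mean below which genes were left out as dim, so these 2 passed through their descending arrays. The other 8 had both means above it. Several further ascending values lay near it, and a fold measured that close to the floor of the array is not exact. The same holds for Tfap2a and Akr1c18 above, with descending means of 4.02 and 4.10, and for Fads2b below, with an ascending mean of 3.75.

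Hoxb6 had the largest fall of all separated genes. It read 4.30, 4.90, 4.38 and 4.11 on the ascending arrays and 7.33, 7.66, 7.69 and 7.73 on the descending arrays. Hoxb6 thus differed by -3.18 (SE 0.14, adjusted p = 2.85e-05), 9.05-fold lower in the ascending segment. Hoxc6 read 4.02, 3.70, 4.50 and 4.38 on the ascending arrays and 6.65, 6.48, 7.35 and 7.66 on the descending arrays. With all 4 ascending arrays on 1 side, the difference was -2.88 (SE 0.11, adjusted p = 1.23e-05), or 7.37-fold lower. Hoxa6 completed the group of paralog 6 and read 5.24, 5.20, 5.20 and 5.06 on the ascending arrays and 7.20, 6.90, 7.15 and 7.03 on the descending arrays. The difference of -1.89 (SE 0.09, adjusted p = 3.74e-05) made the ascending segment 3.72-fold lower. The closest ascending and descending arrays were 2.43 apart for Hoxb6, 1.98 for Hoxc6 and 1.66 for Hoxa6. In the KO the descending arrays of Hoxc6 were above those of the WT, and its ascending arrays were too.

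The neighbouring paralog groups moved in the same direction. Hoxb8 differed by -1.94 (adjusted p = 0.000385), Hoxc8 by -1.69 (adjusted p = 0.000582) and Hoxd8 by -0.79 (adjusted p = 0.00182). Hoxa5 read 5.66, 5.87, 5.47 and 6.04 on the ascending arrays and 7.52, 7.45, 7.21 and 7.25 on the descending arrays. This is 3.03-fold lower in the ascending segment (difference -1.60, SE 0.12, adjusted p = 0.000386). The smaller falls in these groups were those of Hoxb5 (-1.07), Hoxb7 (-0.92), Hoxa7 (-0.88) and Hoxd8. Calls were fewer on both sides of groups 5 to 8. Of 10 tested genes of groups 1 to 4, Hoxc4 (-1.21, adjusted p = 0.000933) and Hoxb4 (-0.51, adjusted p = 0.0336) were lower. Hoxa2 (0.39, adjusted p = 0.0266) was higher with overlapping arrays. Thus 30% were called, against 4.07% of all genes, and the median was 0.04. The call of Hoxb4 was lost without any of the 8 arrays but KO ascending array 2 and KO descending array 2, and that of Hoxa2 without any of the 8 arrays but WT ascending array 1. With arrays shifted to 1 median Hoxa2 was not called, nor was Hoxb4 with the replicate number as a block. Of 12 tested genes of groups 9 to 13, Hoxa9 (-1.27, adjusted p = 0.0024) was lower (8.33% called, against 4.07% of all genes), and the median was -0.02. Hoxb9 differed by -0.29 (adjusted p = 0.0986) and Hoxc9 by -0.08 (adjusted p = 0.714), and neither was called. Within the Hoxa cluster the difference was 0.39 at Hoxa2, 0.04 at Hoxa3, 0.05 at Hoxa4, -1.60 at Hoxa5, -1.89 at Hoxa6, -0.88 at Hoxa7, -1.27 at Hoxa9 and -0.02 at Hoxa10.

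Of 4 tested noncoding RNAs of the clusters, Hoxaas3, antisense to the middle of the Hoxa cluster, was called (-0.47, adjusted p = 0.0311). This is 25%, against 4.07% of all genes. The call of Hoxaas3 was lost without any of the 8 arrays but KO ascending array 2. The sources used here do not say whether its probes read only its own strand. Hotair, from the Hoxc cluster, differed by 0.02 (adjusted p = 0.932). The 8 tested Hox cofactors of the Meis, Pbx and Pknox families gave 0 calls in limma, against 4.07% of all genes. At an unadjusted p under 0.05, 3 were higher and 0 lower, with Meis2 at 0.37 (adjusted p = 0.0636) and Pbx3 at 0.19 (adjusted p = 0.252).

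**Figure D3:**
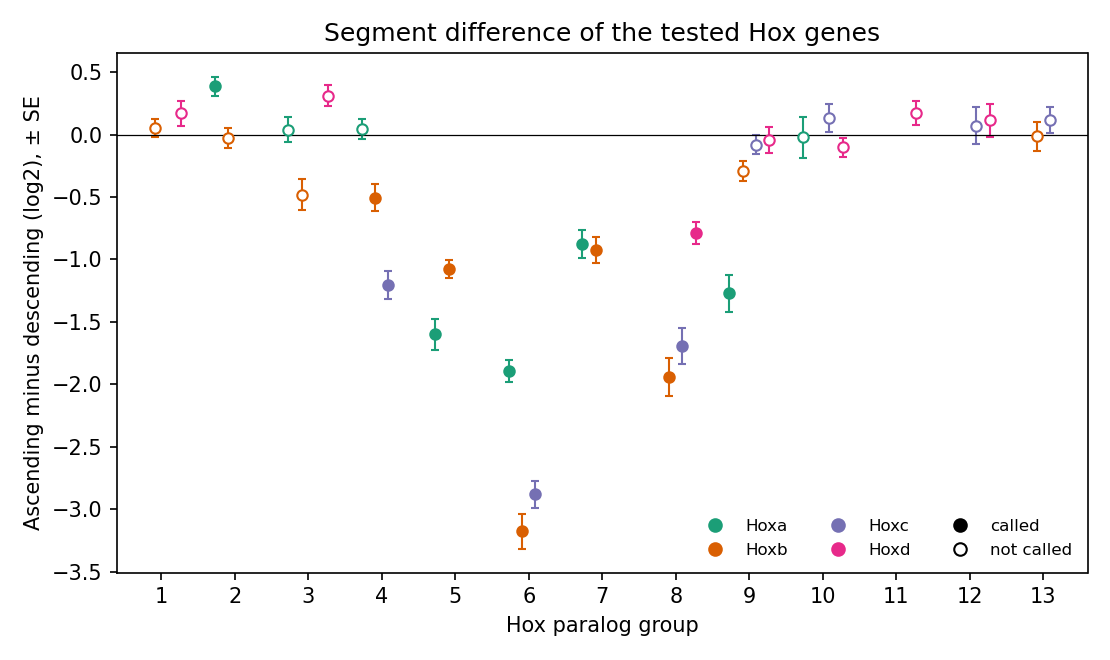
Ascending minus descending difference (log2, averaged over both genotypes; bars are ± SE) of each tested Hox gene by paralog group, coloured by cluster, with filled points for called genes. All points of groups 5 to 8 are filled and lie below 0, down to -3.18 for Hoxb6, while the points of groups 10 to 13 are open and lie near 0.

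The promoters of Hox genes that moved together are shown with that of Tcf21, which moved the other way. The RefSeq table on GRCm38.p6 held a promoter for 18 of the 32 tested Hox genes, among them Hoxa5, Hoxa6 and Hoxb8. Each line gives the 250 bases before the annotated start, 5′ to 3′ on the strand of the gene. Capitals mark matches, on either strand, to TAAT, the core of homeodomain sites, to TATAAA, the TATA box, and to TGATTNAT, a composite site of Hox and Pbx proteins. TAAT and the longer motifs were searched separately and may overlap. Hoxa5 lies at chr6:52204588-52204837 and Hoxa6 at chr6:52208673-52208922, both on the minus strand, Hoxb8 at chr11:96281655-96281904 on the plus strand, and Tcf21 at chr10:22820144-22820393 on the minus strand.
Hoxa5: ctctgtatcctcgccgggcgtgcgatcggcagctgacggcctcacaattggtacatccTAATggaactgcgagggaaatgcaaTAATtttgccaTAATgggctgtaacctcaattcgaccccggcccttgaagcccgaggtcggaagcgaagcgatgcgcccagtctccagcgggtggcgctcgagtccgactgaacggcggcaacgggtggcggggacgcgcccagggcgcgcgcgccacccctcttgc
Hoxa6: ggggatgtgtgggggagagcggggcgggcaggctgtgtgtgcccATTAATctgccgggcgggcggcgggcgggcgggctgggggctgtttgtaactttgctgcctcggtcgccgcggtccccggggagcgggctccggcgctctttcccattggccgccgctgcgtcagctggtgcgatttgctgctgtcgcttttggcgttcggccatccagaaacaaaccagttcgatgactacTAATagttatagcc
Hoxb8: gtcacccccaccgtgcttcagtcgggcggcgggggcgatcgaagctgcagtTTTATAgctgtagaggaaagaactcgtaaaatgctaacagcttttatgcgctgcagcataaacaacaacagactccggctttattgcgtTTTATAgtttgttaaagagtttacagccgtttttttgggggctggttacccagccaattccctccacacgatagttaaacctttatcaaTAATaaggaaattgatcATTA
Tcf21: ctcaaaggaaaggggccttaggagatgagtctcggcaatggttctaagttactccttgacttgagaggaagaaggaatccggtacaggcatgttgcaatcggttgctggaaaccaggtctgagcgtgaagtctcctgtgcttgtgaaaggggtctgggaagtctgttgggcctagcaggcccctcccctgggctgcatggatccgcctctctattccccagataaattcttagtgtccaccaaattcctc
TAAT had 3 matches before Hoxa5, 3 before Hoxa6, 2 before Hoxb8 and 0 before Tcf21. Of 32851 promoter windows of this length 54.9% held it, so a match is common. Among the other Hox genes with a window, TAAT was absent before Hoxa7, called lower, and before Hoxd1 and Hoxd10, not called. It was present before Hoxa9, Hoxd8, Hoxc4 and Hoxb4, called lower, and before Hoxa2, called higher. Uncalled Hoxa3, Hoxa10, Hoxb1, Hoxd3, Hoxd9, Hoxd11 and Hoxd12 held it too. Among Hox genes TAAT thus did not follow the call. TATAAA had 2 matches, both before Hoxb8, and 12.4% of windows held it. TGATTNAT had 0 matches before these 4 genes and was held by 2.82% of windows. The matches describe letters only, and binding was not measured.

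Genes of the list of sympathetic neurons and chromaffin cells were lower in the ascending segment as well. Sympathetic neurons of the paravertebral chain send noradrenaline-releasing fibres to the wall of arteries. The list does not part them from chromaffin cells, and its member Pnmt was too dim to be tested. Of 20 tested members, 15 were lower and separated, 1, Hand2, was higher, and 4 were not called, with a median of -1.15, against 1.92% of all genes separated in that direction. Leaving out single arrays called 14 or 15 as lower. Summed over the list, the ascending arrays gave 10.60 to 10.74 and the descending arrays 11.46 to 12.08. Fewer nerve cells or fibres and less RNA in each of them cannot be told apart in a pool of tissue, and the same holds for every cell type below.

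Dbh, dopamine beta-hydroxylase, which makes noradrenaline, read 4.91, 3.95, 4.67 and 4.42 on the ascending arrays and 6.84, 7.60, 7.13 and 7.57 on the descending arrays. Averaged over the genotypes it was 6.96-fold lower in the ascending aorta, by -2.80 on the log2 scale (SE 0.23, adjusted p = 0.000565). Its difference was -2.79 in WT and -2.81 in KO. Tubb3, neuronal tubulin, read 3.77, 4.69, 5.11 and 4.47 on the ascending arrays and 6.96, 7.53, 6.78 and 7.72 on the descending arrays. On average Tubb3 was 6.67-fold lower in the ascending arrays (difference -2.74, SE 0.28, adjusted p = 0.00126). The 4 descending arrays of both genes lay above the 4 ascending arrays, by 1.93 for Dbh and 1.67 for Tubb3 at the closest. Ddc, an enzyme earlier in the same synthesis, read 4.88, 4.96, 4.99 and 5.01 on the ascending arrays and 6.00, 6.08, 5.93 and 6.02 on the descending arrays. Ddc thus differed by -1.04 (SE 0.07, adjusted p = 0.000247), 2.06-fold lower in the ascending segment.

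Other neuronal genes fell with them. Ina, a neuronal intermediate filament protein, differed by -2.60 (adjusted p = 0.000318), and Nefl, the light neurofilament chain, by -1.87 (adjusted p = 0.00886). Scg2 (-2.35) and Chgb (-2.22) encode proteins of secretory granules, Stmn2 (-1.87) a growth cone protein, and Snap25 (-1.70) and Syt4 (-1.91) proteins of vesicle fusion. With the mean of its 3 probe sets Syt4 differed by -1.19 and stayed called. Among genes chosen after their values were seen, Th, the first enzyme of noradrenaline synthesis (-0.83), Slc18a2, the vesicular monoamine transporter (-0.85), Gap43, a growth cone protein (-0.99), Prph, peripherin (-1.20), and Syt1, a vesicle protein (-1.60), were lower, as were the ganglionic nicotinic receptor genes Chrna3 (-1.42) and Chrnb4 (-1.16). So were the neuropeptide genes Sst (-1.34) and Gal (-0.92), and Dcx, a protein of young neurons (-1.38). Npy, the cotransmitter of these neurons, differed by -1.55, a call lost without WT ascending array 1, KO ascending array 1 or KO descending array 2, and Slc6a2, the noradrenaline transporter, by -1.10, a call lost without KO ascending array 2. Chga, a granule protein, differed by -0.62 (adjusted p = 0.117) and was not called. Uchl1, a neuronal hydrolase, differed by -0.34 (adjusted p = 0.113) and was not called.

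Glial genes followed in part. Of 13 tested Schwann cell genes 4 were lower, against 2.57% of all genes, with a list median of -0.19. Fabp7, a fatty acid binding protein of glial precursors, read 5.88, 5.52, 6.27 and 6.57 on the ascending arrays and 7.17, 7.20, 7.62 and 7.31 on the descending arrays. With all 4 ascending arrays on 1 side, the difference was -1.27 (SE 0.12, adjusted p = 0.000822), or 2.41-fold lower. The other 3, S100b (-0.57), L1cam (-0.97) and Gfra3 (-0.62), each lost the call without 1 array or more. Lower genes numbered 1 without WT ascending array 1, WT ascending array 2, WT descending array 1 or WT descending array 2 and 2 without KO descending array 1. Sox10, the factor that defines the lineage, differed by 0.03 (adjusted p = 0.909) and was chosen after its values were seen. The part that neuronal and glial RNA has in the other differences below was not tested.

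The secreted antagonists of signalling pathways went in both directions. Chrdl1, chordin-like 1, which binds and blocks bone morphogenetic proteins, read 6.87, 6.88, 6.98 and 7.36 on the ascending arrays and 8.85, 8.64, 8.99 and 8.98 on the descending arrays. The difference of -1.84 (SE 0.10, adjusted p = 7.7e-05) made the ascending segment 3.58-fold lower. Hhip, which binds and blocks hedgehog ligands, read 6.62, 6.68, 6.64 and 6.65 on the ascending arrays and 8.66, 8.30, 8.07 and 8.13 on the descending arrays. This is 3.13-fold lower in the ascending segment (difference -1.65, SE 0.09, adjusted p = 9.15e-05). Chrdl1 was 1 of 2 lower genes among 39 tested genes of TGF-beta and BMP signalling, with Gdf10 (-0.69), and 5 were higher (17.9% called, against 4.07% of all genes). The number called higher was 1 without WT descending array 1, 2 without WT ascending array 2, KO ascending array 1 or KO descending array 2 and 3 without WT ascending array 1, WT descending array 2, KO ascending array 2 or KO descending array 1. Hhip was 1 of 2 lower genes among 21 of the hedgehog and Notch pathways, with Gas1, a hedgehog coreceptor (-0.64) (9.52% called, against 4.07% of all genes). The hedgehog receptor Ptch1, itself a target of the pathway, differed by 0.25 (adjusted p = 0.137) and was not called. Of 32 tested genes of the Wnt pathway 3 were higher and 2 lower (15.6% called, against 4.07% of all genes). The ligand gene Wnt16 (0.65) was higher with overlapping arrays. The secreted Wnt antagonist Frzb (0.59, adjusted p = 0.0227) was higher, a call lost without any of the 8 arrays but WT descending array 1 and KO descending array 2. Dkk3, a secreted protein related to Wnt antagonists, was higher by 0.39 (adjusted p = 0.0225), a call lost without any of the 8 arrays but WT ascending array 1 and WT descending array 2. The lower ones were the receptor gene Fzd4 (-0.45), lost without any of the 8 arrays but WT ascending array 2 and KO ascending array 2, and the ligand gene Wnt2b (-0.52), lost without any of the 8 arrays but WT ascending array 2, KO ascending array 2 and KO descending array 1.

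Growth factors and chemokines differed too. Fgf7, a fibroblast growth factor made by mesenchyme, was lower in the ascending segment by -0.93 (adjusted p = 0.00061), opposite to Fgf10. Vegfd, a growth factor of lymphatic vessels, read 8.68, 8.57, 9.46 and 9.60 on the ascending arrays and 10.21, 10.16, 10.63 and 10.45 on the descending arrays. Averaged over the genotypes it was 2.44-fold lower in the ascending aorta, by -1.29 on the log2 scale (SE 0.08, adjusted p = 0.000173). Cxcl13, a chemokine that attracts B cells, read 8.69, 8.73, 9.24 and 9.19 on the ascending arrays and 10.33, 10.27, 10.28 and 10.12 on the descending arrays. On average Cxcl13 was 2.44-fold lower in the ascending arrays (difference -1.29, SE 0.07, adjusted p = 9.15e-05). For Vegfd and Cxcl13 the ascending KO arrays were above the ascending WT arrays, and the difference was smaller in KO (-1.01 and -0.98) than in WT (-1.56 and -1.59), although the interaction was not called for either (adjusted p = 0.775 and 0.699). C1qtnf3, a secreted protein related to adiponectin, read 4.57, 4.86, 5.33 and 5.47 on the ascending arrays and 6.45, 6.49, 7.58 and 7.30 on the descending arrays. C1qtnf3 thus differed by -1.90 (SE 0.10, adjusted p = 6.91e-05), 3.72-fold lower in the ascending segment. Among genes chosen after their values were seen, the chemokine gene Ccl11 (-1.20), the cytokine gene Il33 (-0.96), the complement gene C7 (-0.97) and F3, tissue factor, which starts coagulation (-1.07), were lower in the ascending segment as well.

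Of 31 vasoactive receptors and ligands 5 were higher and 4 lower (29% called, against 4.07% of all genes). Calls of higher genes came to 2 without WT descending array 1, WT descending array 2 or KO ascending array 1 and 3 without WT ascending array 1, KO ascending array 2, KO descending array 1 or KO descending array 2. The count of lower genes was 2 without WT ascending array 1, WT ascending array 2, WT descending array 1, KO ascending array 1 or KO descending array 1. Agtr2, the type 2 angiotensin receptor, which is abundant in fetal mesenchyme, read between 8.95 and 9.07 on the 4 ascending arrays and between 9.62 and 9.86 on the 4 descending arrays. With all 4 ascending arrays on 1 side, the difference was -0.72 (SE 0.07, adjusted p = 0.00107), or 1.65-fold lower. Vipr2, a receptor of vasoactive intestinal peptide, read 5.85, 5.66, 5.62 and 5.69 on the ascending arrays and 6.70, 6.65, 6.50 and 6.52 on the descending arrays. The difference of -0.89 (SE 0.07, adjusted p = 0.000565) made the ascending segment 1.85-fold lower. In WT and KO the difference was -0.80 and -0.65 for Agtr2 and -0.92 and -0.86 for Vipr2. Npy1r, a neuropeptide Y receptor, was higher by 1.02 (adjusted p = 0.00395), but its arrays overlapped, and in each segment its KO arrays were below its WT arrays. Rgs4, a brake on receptor signalling from the smooth muscle list, was higher by 0.79 (adjusted p = 0.00149).

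Guidance genes divided between the segments, with 5 of 35 higher and 7 lower (34.3% called, against 4.07% of all genes). Efna5, an ephrin ligand (0.80), and Robo1, the receptor of Slit proteins (0.93), were higher in the ascending segment, while Slit2, a ligand of Robo1, was lower (-0.85). Efna5 read 9.74, 9.59, 9.54 and 9.56 on the ascending arrays and 8.91, 8.83, 8.78 and 8.72 on the descending arrays. Its segments were 0.63 apart on the closest arrays, and its difference was 0.80 in WT and 0.80 in KO. Slit2 read 8.11, 8.02, 7.97 and 8.10 on the ascending arrays and 8.74, 8.69, 9.06 and 9.09 on the descending arrays. This is 1.8-fold lower in the ascending segment (difference -0.85, SE 0.07, adjusted p = 0.000565). Plxnd1, a semaphorin receptor of endothelium (-0.73), and Sema3a, a repellent of sympathetic axons (-0.67), were lower, and Sema3c, a cue for neural crest cells entering the outflow tract, chosen after its values were seen, was higher (0.74). Higher genes numbered 3 without WT descending array 1. The number called lower was 3 without WT descending array 2 and 4 without WT ascending array 1, WT descending array 1, KO ascending array 1 or KO descending array 2.

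Transcription factors other than Hox genes were among those lower in the ascending segment. Of 20 tested factors of somite and paraxial mesoderm, 7 were lower and 2, Tcf21 and Osr2, higher (45% called, against 4.07% of all genes), with a median of -0.08. Calls of lower genes came to 4 without WT descending array 1. Foxf2, a forkhead factor of mesenchyme, differed by -0.84 (adjusted p = 0.00466), Meox2, a homeobox factor of somites, by -0.69 (adjusted p = 0.00749), and Ebf2, which also acts in brown fat precursors, by -0.51 (adjusted p = 0.00749). With the mean of its 2 probe sets Ebf2 differed by -0.30 and was not called. Eya1 read 5.86, 5.98, 5.86 and 6.07 on the ascending arrays and 6.66, 6.68, 6.60 and 6.97 on the descending arrays. Averaged over the genotypes it was 1.72-fold lower in the ascending aorta, by -0.78 on the log2 scale (SE 0.10, adjusted p = 0.00395). It is a coactivator that binds Six2 and its relatives, and its relative Eya2, chosen after its values were seen, was lower too, by -1.11 (adjusted p = 0.000286), while Six2 was higher. Foxd1, a forkhead factor, also chosen so, differed by -0.98 (adjusted p = 0.0111).

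Matrix genes lower in the ascending segment included Cilp, a matricellular protein of cartilage and fibrous tissue, which read 3.66, 3.93, 4.27 and 4.36 on the ascending arrays and 4.97, 4.79, 5.85 and 5.76 on the descending arrays. Cilp differed by -1.29 (SE 0.09, adjusted p = 0.000255). Its ascending mean of 4.05 was below the dim limit of 4.11, so it was tested through its descending arrays and the size of its fold is not exact. Sparcl1, a matricellular protein of vessel walls, differed by -0.97 (adjusted p = 0.0018), Ctsk, the collagen-degrading cathepsin K, by -0.61 (adjusted p = 0.00527), and Col12a1, a fibril-associated collagen, by -0.73 (adjusted p = 0.00394). Col8a1 (-1.32) and Col11a1 (-1.15) were called but not separated, and in both segments their KO arrays were above their WT arrays. Col8a1 read 5.16, 5.10, 8.21 and 8.88 on the ascending arrays and 7.02, 6.72, 9.61 and 9.27 on the descending arrays. Within each genotype its descending arrays were the higher ones, but the KO ascending arrays exceeded the WT descending arrays. Of 28 tested collagen genes 1 was higher and 3 lower (14.3% called, against 4.07% of all genes). The list of matrix proteases and inhibitors, which holds Ctsk, had 4 higher and 3 lower of 31 tested. This is 22.6%, against the same 4.07%, with a median of 0.09, and the higher calls depended on single arrays. Svep1, an adhesion protein that binds integrins (-1.24), and Apod, a lipocalin (-1.30), both chosen after their values were seen, were lower too.

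Endothelial genes were lower in the ascending segment, in 13 of 29 tested, 10 of them separated, against 2.57% of all genes lower and 1.92% lower and separated, and the median was -0.30. The count of lower genes was 7 without WT descending array 1 and 8 without WT ascending array 1. Summed over the list, the ascending arrays gave 12.97 to 13.25 and the descending arrays 13.33 to 13.55. Vwf, von Willebrand factor, read 8.47, 8.49, 8.42 and 8.28 on the ascending arrays and 9.73, 9.56, 9.37 and 9.27 on the descending arrays. On average Vwf was 2.09-fold lower in the ascending arrays (difference -1.07, SE 0.08, adjusted p = 0.0003). Aplnr, the apelin receptor of veins and capillaries, differed by -1.49 (adjusted p = 0.00147), Plvap, a protein of capillary fenestrae, by -1.05 (adjusted p = 0.000618), and Kdr, a receptor of vascular endothelial growth factor, by -0.83 (adjusted p = 0.000778). Pecam1, a marker of all endothelium chosen after its values were seen, differed by -0.18 (adjusted p = 0.273) and was not called, nor was the lymphatic marker Pdpn (-0.31, adjusted p = 0.0596). Gja5, an artery gap junction gene chosen in the same way, was lower by -0.63 (adjusted p = 0.00526).

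Fat genes were lower in the ascending segment in 10 of 20 tested, against 2.57% of all genes, with a median of -0.67, but their level also differed between genotypes and pools. Only Cebpa and Cox8b were separated. Lower genes numbered 4 without WT descending array 1, 5 without KO descending array 1 or KO descending array 2 and 6 without KO ascending array 1. Summed over the list, WT gave 13.02 and 13.36 on the ascending and 13.71 and 13.78 on the descending arrays, and KO gave 12.27 and 12.58 on the ascending and 13.16 and 13.37 on the descending arrays. The WT ascending arrays therefore reached the KO descending range, while the segments were apart within each genotype. Cox8b, a cytochrome oxidase subunit of brown fat and muscle, read 6.60, 7.96, 6.13 and 7.50 on the ascending arrays and 9.54, 9.25, 8.54 and 8.65 on the descending arrays. Cox8b thus differed by -1.95 (SE 0.34, adjusted p = 0.0168), 3.86-fold lower in the ascending segment. Its call was lost without each of the 4 descending arrays. Adipoq, adiponectin, differed by -1.38 (adjusted p = 0.00155) with overlapping arrays. Fads2b, a gene of the fatty acid desaturase family, was lower by -1.99 (adjusted p = 0.00231), and the lipid enzymes Scd1 (-1.01) and Pck1 (-1.14), chosen after their values were seen, were lower and separated. How far fat attached to the descending pieces enters the other differences was not tested.

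**Figure D4:**
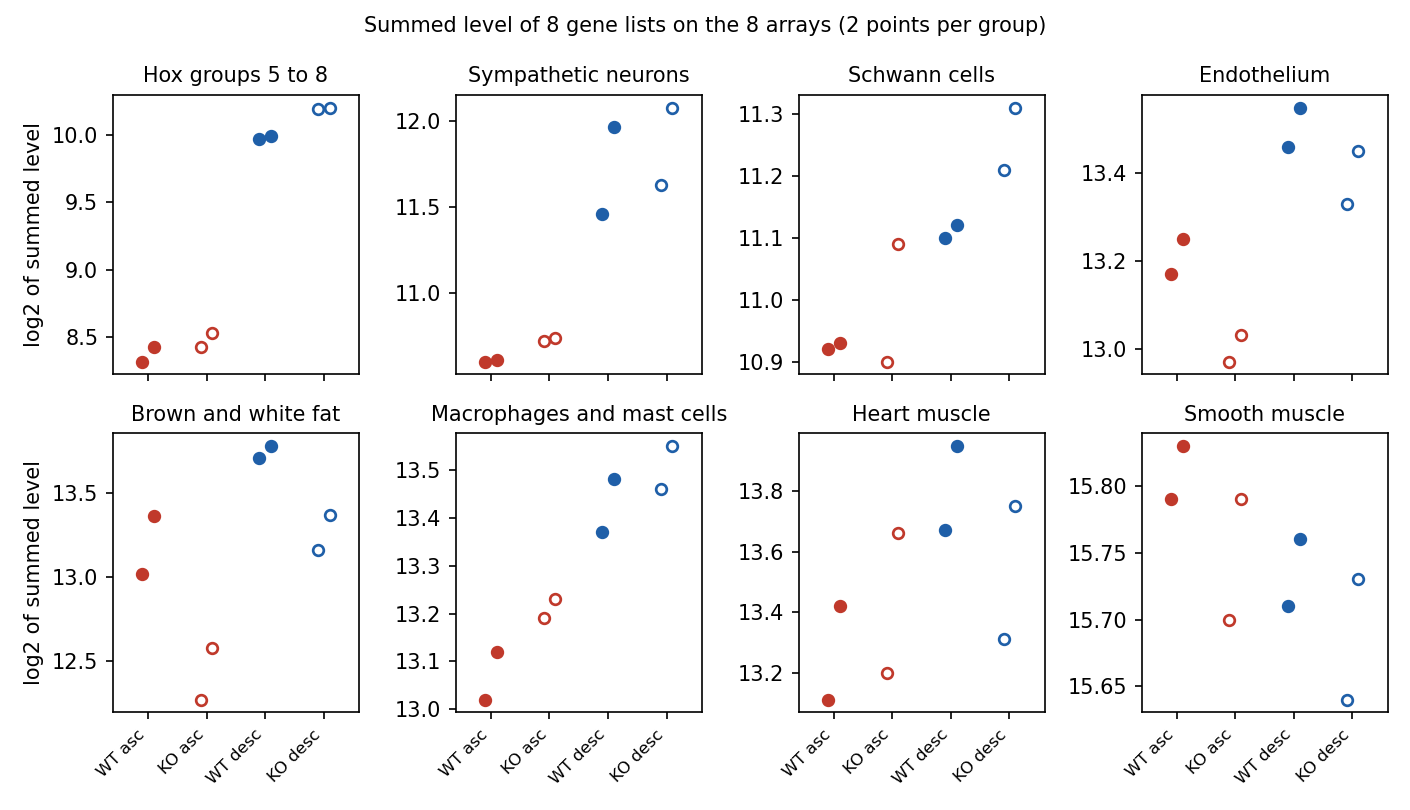
Log2 of the summed level of 8 gene lists on each of the 8 arrays (red, ascending; blue, descending; filled, WT; open, KO; each group's lower array is drawn first, and the vertical scale differs between panels). Hox groups 5 to 8, sympathetic neuron and chromaffin cell, Schwann cell, endothelial and macrophage lists are higher on all 4 descending arrays. For the Schwann cell list the highest ascending array (11.09) and the lowest descending array (11.1) nearly meet. The fat, heart muscle and smooth muscle lists overlap between segments.

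Other tissues gave smaller or less even values. Of 26 tested macrophage and mast cell genes 4 were lower, against 2.57% of all genes, with a median of -0.27 and summed levels of 13.02 to 13.23 on the ascending and 13.37 to 13.55 on the descending arrays. The number called lower was 0 without WT descending array 1, KO descending array 1 or KO descending array 2, 1 without WT ascending array 1 or KO ascending array 1 and 2 without WT descending array 2. Of the heart muscle genes 3 were lower and 2 higher (16.7% called, against 4.07% of all genes). Actc1, cardiac actin, differed by -0.80, a call lost without any of the 8 arrays but WT ascending array 2, KO ascending array 2 and KO descending array 2, while Tnni3, cardiac troponin I, differed by -0.88 (adjusted p = 0.0525) and was not called. Cox7a1, a cytochrome oxidase subunit of heart, muscle and brown fat, was lower by -1.53 (adjusted p = 0.00913). Calls of higher genes came to 4 without WT ascending array 2. The count of lower genes was 1 without WT ascending array 1, WT descending array 1, WT descending array 2, KO ascending array 1 or KO descending array 1 and 7 without KO ascending array 2. Liver genes gave 0 calls in limma over all 8 arrays (5 lower and 1 higher at an unadjusted p under 0.05) but 11 lower calls without KO descending array 1, and thymus genes gave 1 lower call, Cd79b (-0.58, lost without any of the 8 arrays but WT ascending array 1 and WT descending array 2), but 7 higher calls without WT ascending array 2. Over all 8 arrays these calls were 0 of 21 tested liver genes and 5.56% of 18 tested thymus genes, against 4.07% of all genes. The part of RNA from adjoining tissue in the other results was not tested.

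Of 44 tested contractile smooth muscle genes 5 were higher and 1 lower, against 4.07% of all genes called, with a median of 0.08. Smtnl2, of the smoothelin family, was higher by 0.64 (adjusted p = 0.0072) with Rgs4. Higher genes numbered 3 without WT ascending array 2, WT descending array 1, WT descending array 2, KO ascending array 2 or KO descending array 1. The number called lower was 0 without WT ascending array 1, WT descending array 1, WT descending array 2, KO ascending array 1 or KO descending array 1, 2 without WT ascending array 2 and 3 without KO ascending array 2. The retinoic acid pathway gave 0 calls of 16 tested genes in limma (3 lower at an unadjusted p under 0.05), against 4.07% of all genes. Its smallest adjusted p was 0.059 for Dhrs3 (-0.31). The cell cycle list gave 0 of 29 (3 lower and 1 higher unadjusted), against the same 4.07%. Its smallest adjusted p was 0.0719 for Ccnd1 (-0.34). Fibroblast genes gave 1 higher gene, Tcf21, and 1 lower gene, Abcc9, a potassium channel subunit (-0.40, lost without any of the 8 arrays but WT ascending array 1, KO ascending array 2 and KO descending array 1), of 19 (10.5% called, against 4.07% of all genes). A p that misses the threshold does not show that these genes did not differ.

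The interaction is the test of whether the segment difference differs between the genotypes. Of 16638 genes, 932 had an unadjusted interaction p under 0.05 in limma, 53 of them among the 505 separated genes. A share of about 0.05 of all genes would pass that threshold with no interaction at all. The 53 of 505 separated genes are a larger share than the 932 of 16638, and the reason was not tested. After adjustment the interaction test called 0 genes in limma, and 1 with a trended robust prior. It called 11 without KO descending array 1, 2 without WT descending array 1 and 1 without WT descending array 2. Some averaged calls were nonetheless carried mainly by 1 genotype in their values. Sftpc, a surfactant protein of lung, differed by -4.61 in WT and by -0.21 in KO (interaction adjusted p = 0.439). It read 4.50, 4.80, 4.56 and 4.83 on the ascending arrays and 8.37, 10.15, 4.74 and 5.07 on the descending arrays, so only the WT descending arrays stood out. Ptgs2, cyclooxygenase 2, read 5.24, 5.59, 8.39 and 8.33 on the ascending arrays and 4.87, 4.93, 6.32 and 5.78 on the descending arrays. Its difference was 0.52 in WT and 2.31 in KO (interaction adjusted p = 0.439), and the KO ascending arrays were the high ones. Slpi, a secreted protease inhibitor, was separated with a difference of -1.27 in WT and -0.21 in KO (interaction adjusted p = 0.647). Csta3, of the stefin family of protease inhibitors, had opposite signs, -0.94 in WT and 2.46 in KO, and an averaged difference of 0.76 that was not called (adjusted p = 0.146).

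The difference between the genotypes, averaged over the segments, is given here beside the segment difference for 4 genes. For Vegfd the KO minus WT difference was 0.63 (adjusted p = 0.00396), against a segment difference of -1.29. For Tcf21 the KO minus WT difference was -0.23 (adjusted p = 0.1) and for Hoxb6 -0.07 (adjusted p = 0.804), and neither was called. For Ptn it was -0.22 (adjusted p = 0.0981). The 2 averaged comparisons use the same 8 arrays but contrast them along different factors.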

How the data were processed

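Total RNA of 8 pools of newborn mouse aorta was measured on Affymetrix mouse gene arrays, 2 for each group of genotype and segment. Per the labels' protocols, 50 ng of RNA was amplified with the NuGEN Ovation Pico kit and labelled with the Encore Biotin kit. The deposited values are log2 RMA values, for which the authors used Affymetrix Expression Console, per the submitters' processing notes. No version or option is given in the sources used. Quantile normalization, a usual step of RMA, gives all arrays nearly 1 distribution, so a change of total RNA cannot be seen.

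The platform table paired 23525 of the 41345 probe sets with a single symbol and 1810 with several, and it left 16010 unnamed. Single-symbol probe sets stood for 22184 genes. For the 1082 genes with several such probe sets, the brightest by its mean over all arrays was kept. Dim genes, with a mean under the 25th percentile of these (4.11), were dropped, and 16638 were tested.

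The model, in limma 3.58.1 under R 4.3.3, gave every group its own coefficient and used eBayes defaults (residual df 4, prior df 4.51), with Benjamini-Hochberg adjustment over all genes tested. The fit was tested on simulated data. The 44 gene lists held 1074 members, of which 997 matched a gene, 3 by an older symbol, and 944 were tested. Lists are described by counts and medians, and a list's summed level is the log2 of the sum of its members' linear values. Genes were named by rule: the 15 largest rises and falls among separated genes, the 10 smallest p-values, up to 6 members of each list by p, all tested Hox genes, the 10 smallest interaction p-values, and Lox, with predicted genes, microRNAs and similar classes skipped. Members, lists and tests were chosen with earlier results of these data known.

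Alternatives changed the filter, the prior, the normalization, array weights, the choice of probe set, the minimum size tested, the model terms, the replicate number as a block, and each array in turn. Depth has no meaning for arrays, and the number of arrays limits the precision. Python 3.11.15 and matplotlib 3.10.9 were used for the plots.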

Additional observations from a re-analysis of the deposited data

How the results depend on the processing

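The averaged comparison called 677 genes, 505 of them separated. Leaving out 1 array at a time called 390 to 542 (separated, 332 to 449), with 63 to 224 for WT alone, 54 to 191 for KO alone and 0 to 11 for the interaction. A trended robust prior called 444 in WT, 430 in KO and 1 in the interaction. Testing all probe sets at or above their 25th percentile separately called 349 (307 separated), with 32 in WT and 35 in KO. A test against a 1.2-fold minimum called 176 (157 separated), with 72 in WT and 74 in KO. Leaving genotype out of the fit called 297. After cyclic loess, 100% of the genes called in WT had the same sign in KO. The causes of these shifts were not tested, other than that the 1.2-fold test asks for larger differences. Filters, median shift, array weights and mean of probe sets left these 5 counts within 1.5 times the reported ones, as additive terms did for the averaged (688) and separated (524) counts, where alone they were run.

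The replicate numbers are not tied to a litter or day in the labels. Same-numbered arrays deviated from their group means with correlations of -0.095 to 0.126 between groups. With 2 arrays a group this cannot show whether they share a litter, a day or pups. With the replicate number as a block, 636 genes were called, 467 separated, with 234 in WT, 220 in KO and 0 in the interaction.

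Of the 505 separated genes, 157 to 503 stayed called in each of the 20 settings run, of which the filter at the 50th percentile tested 373. Of 371 genes covered by the naming rule and its additions, 206 were called, and 88 of those were called in every setting. The median difference of all genes stayed between -0.017 and 0.01. With 2 pools a group, small differences were often not called.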

Other observations

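Some probe sets without a single gene symbol also differed between the segments, but a smaller share of them than of those with 1 symbol. Tested as probe sets over the whole table in limma, 279 of 18916 with 1 symbol were called, 20 of 1572 with several and 50 of 10521 with none. Of the called ones without any symbol, 44 had ascending arrays that did not overlap the descending arrays, as had 19 of those with several symbols.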
